A study of Mus musculus with 13 samples.

Results

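The 9 genes described here belong to B cells and to the antibodies they make: Ighm, Jchain, Cd79a, Cd79b, Ms4a1, Blk, Pou2af1, Tnfrsf17, and Cd22. They were listed by name, and each was represented by 1 array probe set, namely the one annotated to that symbol alone with the highest mean over the 13 arrays. All 9 were found among the 22180 genes measured in this way. The arrays came from subcutaneous tumors of Panc02 cells, a murine pancreatic ductal adenocarcinoma line, each grown in the flank of a different male C57BL/6 mouse. DIO + HMB tumors (n = 4) came from mice with diet-induced obesity on a high-fat diet that was supplemented with HMB. HMB, short for β-hydroxy-β-methylbutyrate, is made in the body from the amino acid leucine and is sold as a dietary supplement. DIO tumors (n = 3) came from obese mice on the high-fat diet without HMB. Control + HMB tumors (n = 3) came from non-obese mice on a low-fat diet with HMB, and control tumors (n = 3) came from non-obese mice without it. HMB was given in the diet from shortly before tumor injection. All mice of the study then received gemcitabine or vehicle, and the labels do not say which of them the 13 mice were given.

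A B cell senses antigen through a membrane antibody, of which Ighm encodes the μ heavy chain, and Cd79a and Cd79b encode the pair of chains that carry its signal into the cell. Blk is a Src family kinase that acts just below this receptor, Cd22 is a sialic acid-binding coreceptor that restrains it, and Ms4a1 encodes CD20, a surface protein of mature B cells. Pou2af1 encodes a coactivator that partners octamer-binding transcription factors in B cells. Jchain links antibody units into secreted polymers, and Tnfrsf17 encodes BCMA, a survival receptor of plasma cells. Within tumors such genes are read mainly from infiltrating lymphocytes rather than from carcinoma cells. In homogenized tissue, fewer cells of a type and less RNA per cell cannot be told apart.

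One array stood apart before any comparison of the groups. DIO + HMB replicate 1 held the highest value of all 13 arrays for 8 of the 9 genes, with Tnfrsf17 as the exception. Across all genes measured, 1741 of 22180 (7.85%) had their highest value on that array. On the log2 scale, where a difference of 1 is a factor of 2, its gap to the next highest array lay between 1.64 for Ighm and 4.38 for Cd79a. Ranked by that gap among the 22180 genes, Cd79a was number 4, Ms4a1 13, Blk 19, Jchain 22, Cd79b 23, Pou2af1 30, Cd22 44, Ighm 79, and Tnfrsf17 9870. By Dixon's ratio, the gap to the nearest array of the same group divided by the range of that group, replicate 1 lay above the other 3 DIO + HMB arrays for 5 of the 9 genes. The same held for 1.42% of all genes. The comparisons of the groups are given with and without this array. The array was named for this in advance, and the genes were chosen with earlier results known. The ranks and ratios thus describe the array and are not independent support for setting it aside. Array medians over the 22180 genes lay between 4.27 and 4.65, and pairs of arrays correlated at 0.96 to 0.98. Ms4a1, Blk, and Tnfrsf17 stayed below these medians on the other arrays, at most 3.40, 3.62, and 2.97. Jchain, Cd79a, and Pou2af1 had medians of 3.46, 3.39, and 3.69 on those arrays. No detection call was used, so whether such low values are signal was not tested. Krt8 and Krt18, keratins of simple and ductal epithelium, lay between 8.75 and 9.62 and between 8.99 and 9.97 on the 13 arrays. They do not stand for all epithelial genes, since 6 of 9 ductal epithelial genes listed were highest on replicate 1. Among these Epcam measured 6.47 there, against 3.84 to 4.65 on the other arrays.

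**Figure D1:**
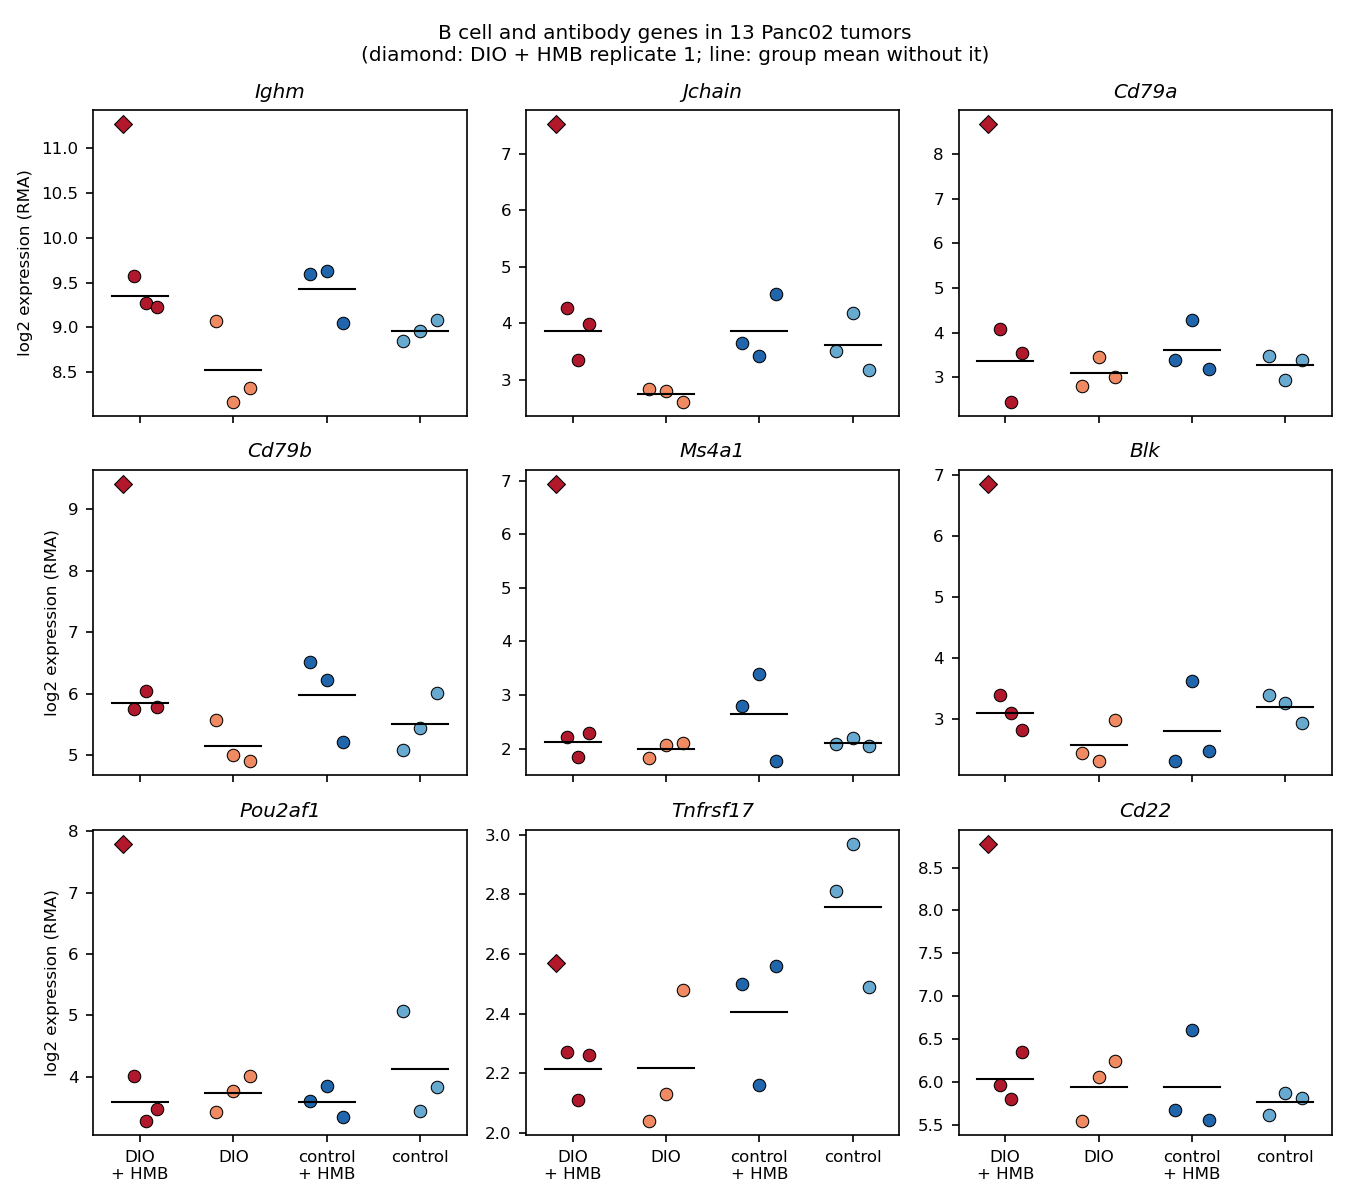
Log2 expression (RMA) of the 9 genes in each tumor, by group, with the DIO + HMB group at the left and 1 point per array. The diamond is DIO + HMB replicate 1 and the line is the group mean without it. For every gene but Tnfrsf17 the diamond sits above all other points, by 1.64 to 4.38.

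Of the chains of the B cell receptor, Ighm, by the probe set used here, and Cd79b separated the obese groups and Cd79a did not. Among all genes 3.57% separated these groups with DIO + HMB higher, and 6.10% did with replicate 1 left out. Of the 7 probe sets of Ighm, 4 did so with that array left out. Ighm measured 11.27, 9.57, 9.27, and 9.23 in DIO + HMB tumors, against 9.07, 8.17, and 8.32 in DIO tumors. It measured 9.60, 9.63, and 9.05 in control + HMB tumors and 8.85, 8.96, and 9.08 in control tumors. All 4 DIO + HMB arrays therefore lay above the 3 DIO arrays, also when replicate 1 was set aside. Cd79b measured 9.41, 5.75, 6.04, and 5.78 in DIO + HMB tumors, against 5.57, 5.00, and 4.90 in DIO tumors. In control + HMB tumors it measured 6.51, 6.22, and 5.21, and in control tumors 5.08, 5.45, and 6.01. Cd79b likewise separated the obese groups without overlap, while the non-obese groups overlapped each other. Cd79a behaved differently from its partner outside replicate 1. It measured 8.67, 4.08, 2.45, and 3.54 in DIO + HMB tumors and 2.81, 3.45, and 3.00 in DIO tumors. The values were 3.39, 4.29, and 3.18 in control + HMB tumors and 3.48, 2.94, and 3.39 in control tumors. Once replicate 1 was left out, the DIO + HMB values of Cd79a spanned the whole range of the DIO values.

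For the genes that were highest on replicate 1 together, the 250 bases before the annotated start are shown for Cd79a and Pou2af1, and for contrast the same stretch of Tnfrsf17, which was not. RefSeq promoter sequence (GRCm38.p6) was at hand for 5 of the 9 genes, Cd22 and Jchain being the others. The sequences run 5′ to 3′ on the gene's own strand, and capitals mark every match, on either strand, to the motifs listed after them.
Cd79a (chr7:24897247-24897496, plus strand): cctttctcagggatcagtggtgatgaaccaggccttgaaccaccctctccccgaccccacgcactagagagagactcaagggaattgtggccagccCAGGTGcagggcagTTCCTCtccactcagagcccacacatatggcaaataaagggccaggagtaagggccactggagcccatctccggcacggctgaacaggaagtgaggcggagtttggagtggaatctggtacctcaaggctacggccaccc
Pou2af1 (chr9:51213440-51213689, plus strand): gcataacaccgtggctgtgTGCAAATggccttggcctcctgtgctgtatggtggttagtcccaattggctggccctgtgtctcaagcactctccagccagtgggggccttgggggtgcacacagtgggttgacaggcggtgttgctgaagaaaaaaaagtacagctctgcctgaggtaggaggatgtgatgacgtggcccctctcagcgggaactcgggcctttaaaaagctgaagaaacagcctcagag
Tnfrsf17 (chr16:11313559-11313808, plus strand): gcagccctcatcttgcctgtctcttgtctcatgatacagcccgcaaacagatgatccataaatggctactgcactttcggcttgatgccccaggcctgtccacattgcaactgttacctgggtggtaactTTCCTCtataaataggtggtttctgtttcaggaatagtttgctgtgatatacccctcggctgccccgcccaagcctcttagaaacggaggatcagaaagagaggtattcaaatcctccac
The letters searched were the octamer ATTTGCAT, its 7-base core ATTTGCA, the EBF core CCCNNGGG, the E-box CAGGTG, and the PU.1 core GAGGAA, where the core is contained in the octamer. The full octamer, which occurred in 1.60% of 32851 promoter windows of the same length, was in none of the 5. Its core occurred in 3.57% of windows and here in the Pou2af1 sequence alone, on the minus strand. The E-box letters were in Cd79a and Cd22 (17.2% of windows), the EBF core in Cd22 alone (11.8%), and the PU.1 core in Cd79a and Tnfrsf17 (23.3%). The Jchain window held none of them. A match of letters is a description of the sequence and not a site.

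The surface and signaling genes Ms4a1, Blk, and Cd22 did not separate the groups, with or without replicate 1. Ms4a1 measured 6.94, 2.22, 1.85, and 2.30 in DIO + HMB tumors, against 1.83, 2.06, and 2.10 in DIO tumors. It measured 2.79, 3.40, and 1.76 in control + HMB tumors and 2.09, 2.19, and 2.04 in control tumors. Apart from DIO + HMB replicate 1, only control + HMB replicates 1 and 2 exceeded 2.30. Blk measured 6.85, 3.39, 3.11, and 2.83 in DIO + HMB tumors and 2.45, 2.31, and 2.99 in DIO tumors. The values were 2.32, 3.62, and 2.48 in control + HMB tumors and 3.40, 3.26, and 2.94 in control tumors. Cd22 measured 8.78, 5.96, 5.80, and 6.35 in DIO + HMB tumors, against 5.54, 6.05, and 6.24 in DIO tumors. It measured 5.67, 6.60, and 5.55 in control + HMB tumors and 5.61, 5.87, and 5.81 in control tumors. For Blk and Cd22 the groups overlapped in both pairs, and control + HMB replicate 2 was the highest of the 12 other arrays. That array was the highest of the 12 for Ighm, Cd79a, and Ms4a1 as well, 5 of the 9 genes in all.

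The coactivator and the antibody secretion genes did not share 1 pattern. Pou2af1 measured 7.80, 4.01, 3.28, and 3.48 in DIO + HMB tumors, against 3.43, 3.77, and 4.02 in DIO tumors. It measured 3.60, 3.85, and 3.34 in control + HMB tumors and 5.08, 3.45, and 3.84 in control tumors, so that its second highest value was in an unsupplemented non-obese mouse. Jchain measured 7.52, 4.27, 3.35, and 3.99 in DIO + HMB tumors and 2.84, 2.80, and 2.61 in DIO tumors. The values were 3.65, 3.42, and 4.52 in control + HMB tumors and 3.51, 4.18, and 3.18 in control tumors. The 3 DIO tumors held the 3 lowest Jchain values of the 13 arrays, and they lay close together (SD 0.12). Tnfrsf17 measured 2.57, 2.27, 2.11, and 2.26 in DIO + HMB tumors, against 2.04, 2.13, and 2.48 in DIO tumors. It measured 2.50, 2.16, and 2.56 in control + HMB tumors and 2.81, 2.97, and 2.49 in control tumors. Its range over all arrays was the smallest of the 9 genes, and its 2 highest values were in control tumors.

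In DIO + HMB against DIO, the comparison that asks what HMB did in obese mice, none of the 22180 genes passed an adjusted p of 0.05 in limma (0.00% called with Benjamini-Hochberg adjustment), while 740 were higher and 831 lower at an unadjusted p under 0.05. None of the 9 genes passed either, with adjusted p-values in limma from 0.705 to 0.921. All 9 had higher means in DIO + HMB tumors, with a median difference of 1.33, against -0.01 over all genes. At an unadjusted p under 0.05, 3 of the 9 were higher, compared with 3.34% of all genes. These were Ighm, with a difference of 1.31 ± 0.41 (SE), Jchain, with 2.03 ± 0.74, and Cd79b, with 1.59 ± 0.73, each at an adjusted p of 0.705 in limma. The same 3 genes were those whose DIO + HMB arrays all lay above the DIO arrays, compared with 3.57% of all genes. The other differences were 1.60 ± 1.05 for Cd79a, 1.47 ± 0.76 for Blk, 1.33 ± 0.94 for Ms4a1, 0.90 ± 0.85 for Pou2af1, 0.78 ± 0.57 for Cd22, and 0.08 ± 0.17 for Tnfrsf17.

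Without replicate 1 the median difference of the 9 genes was 0.27, and 7 of them were higher in DIO + HMB tumors. Again none of the 9 passed in limma, with adjusted p-values from 0.79 to 0.997, nor did any of the 22180 genes (0.00%). Ighm differed by 0.83 ± 0.23 (SE, limma adjusted p = 0.79), and Jchain by 1.12 ± 0.32 (adjusted p = 0.79). These 2 of the 9 genes were higher at an unadjusted p under 0.05, compared with 3.00% of all genes. Cd79b differed by 0.70 ± 0.33 (limma adjusted p = 0.79). Ighm, Jchain, and Cd79b again did not overlap between the groups, 3 of the 9 genes, compared with 6.10% of all genes with 3 arrays a group. The differences of the other 6 genes came to 0.53 ± 0.31 for Blk, 0.27 ± 0.39 for Cd79a, 0.13 ± 0.31 for Ms4a1, 0.09 ± 0.27 for Cd22, -0.005 ± 0.17 for Tnfrsf17, and -0.15 ± 0.36 for Pou2af1. For 5 of these 6 genes, all but Blk, the difference without that array was smaller than its standard error.

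**Figure D2:**
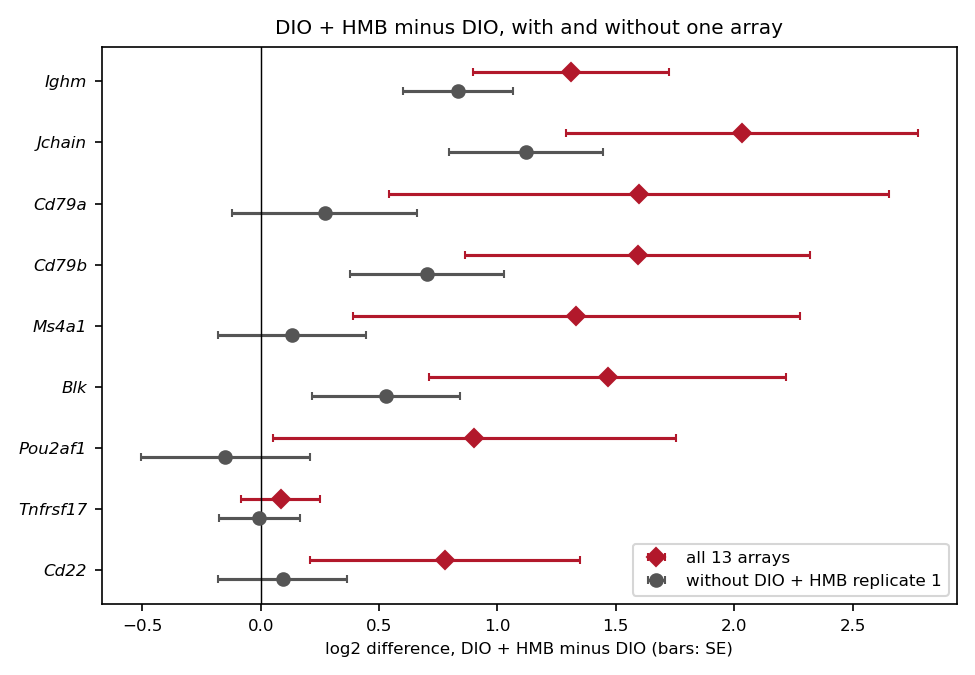
Log2 difference between DIO + HMB and DIO tumors for each of the 9 genes, with bars for the standard error from limma. Diamonds are from all 13 arrays and circles from the fit without DIO + HMB replicate 1. Without that array Ighm (0.83) and Jchain (1.12) stay farthest from 0, and Pou2af1 lies at -0.15.

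In DIO against control, the effect of obesity without HMB, 8 of the 9 genes had lower means in DIO tumors. The median difference was -0.38, against 0.02 over all genes. None of the 9 passed in limma (adjusted p from 0.591 to 0.987), and 0.00% of all genes were called, with 955 higher and 762 lower at an unadjusted p under 0.05. Tnfrsf17 differed by -0.54 ± 0.18 (SE, limma adjusted p = 0.591). With all arrays in the fit it was the only 1 of the 9 genes lower at an unadjusted p under 0.05, compared with 3.44% of all genes. Without DIO + HMB replicate 1 in the shared spread 2 of the 9 were, Jchain being the other, compared with 3.43% of all genes. The 3 DIO arrays of Tnfrsf17 lay below its 3 control arrays, but only just, at most 2.482 against at least 2.49. Those of Jchain did too, which makes 2 of the 9 genes, compared with 4.95% of all genes. Jchain differed by -0.87, with a standard error of 0.80 when replicate 1 entered the shared spread (limma adjusted p = 0.814) and of 0.32 when it did not (adjusted p = 0.619). Ighm differed by -0.44 ± 0.44 and Blk by -0.62 ± 0.81, and Cd22 alone was higher, by 0.18 ± 0.61. Without replicate 1 the adjusted p-values of the 9 genes in limma lay between 0.610 and 0.947, and no gene of the 22180 passed.

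In control + HMB against control, the effect of HMB in non-obese mice, 6 of the 9 genes had higher means and 3 lower means in control + HMB tumors, with a median difference of 0.24, against 0.04 over all genes. Without control + HMB replicate 2 the median was 0.01. Ms4a1 differed by 0.54 ± 1.01, Ighm by 0.46 ± 0.44, and Cd79b by 0.46 ± 0.78, and the lower means were those of Pou2af1 (-0.53 ± 0.91), Blk (-0.39 ± 0.81), and Tnfrsf17 (-0.35 ± 0.18). The adjusted p-values in limma lay between 0.472 and 0.936 (0.00% of all genes called). Without DIO + HMB replicate 1 in the shared spread they lay between 0.457 and 0.832, and 1 gene of the 22180 passed (0.00451%), which was none of the 9.

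The HMB effect averaged over both diets had a median of 0.89 over the 9 genes with all arrays and of 0.31 without replicate 1. Ighm differed by 0.89 ± 0.30 with all arrays (SE, limma adjusted p = 0.261) and by 0.65 ± 0.17 without that array (adjusted p = 0.244). Without it, Jchain differed by 0.68 ± 0.23 (limma adjusted p = 0.262) and Cd79b by 0.58 ± 0.23 (adjusted p = 0.311). Whether the effect of HMB differed between the diets was tested as an interaction, the HMB difference in obese mice minus that in non-obese mice. It was above 0 for all 9 genes, with a median of 1.13, and for 6 of the 9 without replicate 1, with a median of 0.35. No adjusted p of an interaction in limma was under 0.933 with all arrays or under 0.998 without replicate 1. Without that array the interactions farthest from 0 relative to their standard errors were those of Blk (0.92 ± 0.44) and Jchain (0.88 ± 0.46).

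The remaining comparisons both rest on the DIO + HMB group. In DIO + HMB against control, the median difference of the 9 genes was 0.96 with all arrays and 0.09 without replicate 1. Ighm differed by 0.87 ± 0.41 (limma adjusted p = 0.35) and by 0.39 ± 0.23 (adjusted p = 0.464) without replicate 1. Tnfrsf17 ran the other way, at -0.45 ± 0.17 (limma adjusted p = 0.25) with all arrays and at -0.54 ± 0.17 (adjusted p = 0.239) without that one. In DIO + HMB against control + HMB, the effect of obesity under HMB, the median difference was 0.78 with all arrays and -0.07 without replicate 1. The count of genes with higher DIO + HMB means was 8 of 9 with that array and 3 of 9 without it. All adjusted p-values in limma were 0.9999.

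Compared as group means without replicate 1, DIO tumors had the lowest mean for 6 of the 9 genes (Ighm, Jchain, Cd79a, Cd79b, Ms4a1, and Blk) and the highest for none. Control + HMB tumors had the highest mean for 4 of them (Ighm, Cd79a, Cd79b, and Ms4a1) DIO + HMB tumors for 2 (Jchain and Cd22), and control tumors for 3 (Blk, Pou2af1, and Tnfrsf17). Ighm averaged 9.36 ± 0.18 in DIO + HMB tumors without replicate 1, 8.52 ± 0.48 in DIO tumors, 9.42 ± 0.33 in control + HMB tumors, and 8.96 ± 0.12 in control tumors (SD, n = 3 each). Jchain averaged 3.87 ± 0.47 in DIO + HMB tumors without replicate 1, 2.75 ± 0.12 in DIO tumors, 3.86 ± 0.58 in control + HMB tumors, and 3.62 ± 0.51 in control tumors. The 2 HMB groups lay within their spread of each other for both genes, and for Jchain so did the control group. The mean centered value of the 9 genes on an array, their score, was 3.18 on DIO + HMB replicate 1 and lay between -0.62 and 0.22 on the other 12 arrays. The 3 DIO arrays had the 3 lowest scores, -0.62, -0.60, and -0.50. This order did not hold for the score of 7 genes, without Tnfrsf17 and Jchain. That score was lowest on control + HMB replicate 3, at -0.62, against -0.60, -0.59, and -0.48 on the DIO arrays. The spread of the score of all 9 genes within groups was 0.99 (pooled SD) with replicate 1 and 0.20 without it.

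The genes correlated with each other mainly through that array. Over the 13 arrays the 28 pairs without Tnfrsf17 had Pearson correlations between 0.70 and 0.97, with a median of 0.86, and the 8 pairs with Tnfrsf17 lay between 0.04 and 0.33. Over the 12 other arrays the 28 pairs lay between -0.34 and 0.85, with a median of 0.27, and 9 of all 36 pairs were below 0. These arrays share groups and processing, and no test was made of the correlations. The gene outside the 9 with the pattern most like their score over 13 arrays was Fcmr, the Fc receptor for IgM (r = 0.98). After it came Glycam1, a mucin-like ligand of L-selectin on lymph node vessels (0.97), Ly6d, a surface marker of early B lineage cells and keratinocytes (0.96), Dsc3, a cadherin of desmosomes (0.96), Fcrl1, a receptor-like protein of B cells (0.96), an immunoglobulin heavy chain variable gene (0.96), Epcam, an epithelial adhesion molecule (0.96), and Tnfrsf13c, the BAFF receptor (0.96). On DIO + HMB replicate 1, Fcmr measured 8.67, Glycam1 7.88, Dsc3 5.77, and Epcam 6.47. On the other 12 arrays Fcmr stayed between 2.96 and 3.73, Glycam1 between 3.03 and 3.90, Dsc3 between 1.90 and 2.47, and Epcam between 3.84 and 4.65. Over the 12 other arrays none of these 8 genes was among the most alike. There the list was Slain1 (r = 0.87), Cdc42se1, Tmem255a, Rogdi, Ldb2, Gimap3, Sidt1, and Surf1 (0.81). Gimap3, a GTPase of lymphocytes, measured 7.75, 6.59, 6.27, and 6.29 in DIO + HMB tumors, against 5.80, 5.67, and 5.48 in DIO tumors. It was picked for its likeness to the score on these same arrays, on which the DIO tumors scored lowest. Its low DIO values are therefore not separate support for a difference between the groups.

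The 7 probe sets annotated to Ighm alone disagreed outside replicate 1, on which each of the 7 had its highest value. Which exon or rearranged stretch each reads is not stated in the platform annotation. Tested as separate rows, a choice made after the data were seen, none of the 7 passed in limma in DIO + HMB against DIO with or without replicate 1, or in DIO against control (0.00% of 23521 probe sets called in each). In DIO + HMB against DIO all 7 were higher, with a median of 1.57, and 3 of 7 were so at an unadjusted p under 0.05, compared with 3.24% of all probe sets. Without replicate 1, 6 of 7 were higher, with a median of 0.72, and 3 of 7 at an unadjusted p under 0.05, compared with 2.88%. Groups did not overlap for 4 of 7 without that array, compared with 5.97%. Probe set 17284660 measured 8.91, 7.92, 5.42, and 7.97 in DIO + HMB tumors, against 4.84, 4.20, and 5.00 in DIO tumors. It measured 7.13, 6.15, and 8.50 in control + HMB tumors and 8.58, 8.60, and 6.77 in control tumors. Here the DIO arrays lay below all 10 others. The difference was 2.88 ± 0.76 in DIO + HMB against DIO (SE, limma adjusted p = 0.712) and 2.42 ± 0.75 without replicate 1 (adjusted p = 0.796). In DIO against control it was -3.30 ± 0.81 (limma adjusted p = 0.595). It was the 1 of 7 that was lower there at an unadjusted p under 0.05 (3.41% of all probe sets) and the 1 of 7 without overlap (5.02%). Probe set 17284507, by contrast, differed by -0.41 ± 0.34 in DIO + HMB against DIO without replicate 1.

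**Figure D3:**
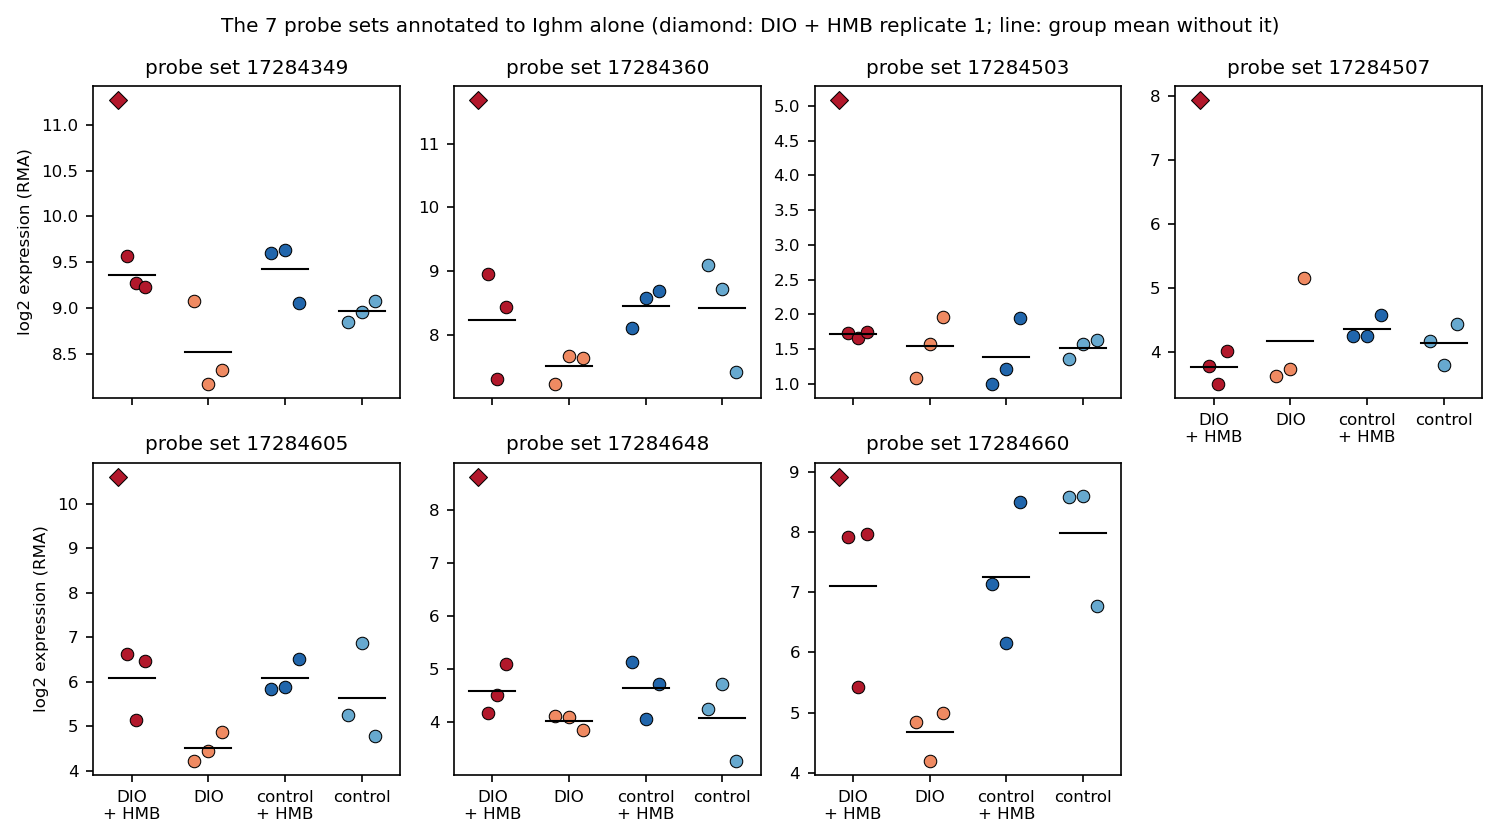
Log2 expression (RMA) of the 7 probe sets annotated to Ighm alone, by group, with 1 point per array. The diamond is DIO + HMB replicate 1 and the line is the group mean without it. In probe set 17284660 the 3 DIO arrays, between 4.20 and 5.00, sit below the 10 others.

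Other antibody sequence was measured by 24 probe sets for variable, joining, and constant segments. Of these, 21 were highest on replicate 1, and 23 were higher in DIO + HMB than in DIO tumors, with a median of 1.25. Without that array 20 of 24 were higher, with a median of 0.21. In DIO against control 19 of 24 were lower, with a median of -0.20. Of 11 constant-region genes listed, Ighg3 alone had a probe set of its own name. The Ighg3 probe set used under the rule measured 3.60, 3.81, 2.91, and 3.03 in DIO + HMB tumors, against 3.28, 4.11, and 4.35 in DIO tumors, a difference of -0.57 ± 0.26 (limma adjusted p = 0.705). Its other probe set ran the opposite way, at 6.68, 3.05, 3.30, and 3.39 in DIO + HMB tumors, against 3.62, 2.62, and 2.84 in DIO tumors, a difference of 1.08 ± 0.70, which was 0.22 ± 0.30 without replicate 1. No direction is therefore given for Ighg3.

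The wider B cell program was described with lists of genes, and replicate 1 held the highest value for most genes of the mature B cell lists. This was so for 19 of 23 genes of B cell surface and homing, 7 of 10 B lineage transcription factors, and 8 of 12 signaling partners of the receptor. It was so for 3 of 16 plasma cell and secretion genes and 1 of 8 germinal center genes. No gene of any list passed in limma in DIO + HMB against DIO, with or without replicate 1. Among surface and homing genes 22 of 23 had higher means in DIO + HMB than in DIO tumors, with a median of 0.87, and 18 of 23 did without replicate 1, with a median of 0.17. The lowest unadjusted p-values were those of Ltb, a lymphotoxin chain (1.14 ± 0.49), Tnfrsf13b, the TACI receptor (0.72 ± 0.31), Cd180 (0.37 ± 0.17), and Btla, an inhibitory receptor (1.41 ± 0.71). Without replicate 1 these differences were 0.62 ± 0.33 for Ltb, 0.36 ± 0.18 for Tnfrsf13b, 0.32 ± 0.19 for Cd180, and 0.57 ± 0.36 for Btla. Among transcription factors, all 10 had higher means, with a median of 0.78, which was 0.27 without replicate 1, led by Ikzf1 (0.78 ± 0.33), Mef2c (0.86 ± 0.37), Bcl11a (1.03 ± 0.51), and Ikzf3 (1.02 ± 0.52). Without that array Ikzf1 differed by 0.44 ± 0.22, Mef2c by 0.63 ± 0.36, Bcl11a by 0.51 ± 0.37, and Ikzf3 by 0.39 ± 0.26. Of the signaling partners 11 of 12 had higher means, with a median of 0.40 and of 0.27 without replicate 1. These were led by Ptpn6, a phosphatase that acts with Cd22 (0.38 ± 0.17), Btk (0.48 ± 0.23), Dapp1 (0.34 ± 0.16), and Prkcb (0.42 ± 0.21). Without replicate 1 Ptpn6 differed by 0.30 ± 0.17, Btk by 0.31 ± 0.21, Dapp1 by 0.29 ± 0.18, and Prkcb by 0.24 ± 0.18. Ptpn6 lay between 9.19 and 10.09 on all arrays. Which cells the genes of these lists were read from was not tested. The lists did not all follow the 9 genes in DIO against control. There 12 of 23 surface and homing genes had higher means (median 0.01), as did 7 of 12 signaling partners (0.04). So did 9 of 16 plasma cell and secretion genes (0.03). The transcription factors (3 of 10 higher, median -0.18) and the germinal center genes (3 of 8 higher, -0.15) had medians below 0. Low values in DIO tumors were not particular to B cell genes. Of 12 T cell genes, 11 had lower means and 1 a higher mean in DIO than in control tumors, with a median of -0.48. Of 11 macrophage genes, 8 had higher and 3 lower means (median 0.16). No gene of these 2 lists passed in limma.

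Genes of plasma cells and of the germinal center had median differences nearer to 0. The 16 plasma cell and secretion genes had a median difference of 0.14 in DIO + HMB against DIO and of 0.10 without replicate 1. Sdc1, the plasma cell surface proteoglycan that epithelial cells also carry, differed by 0.57 ± 0.22 and Tent5c by 0.47 ± 0.21, while Sec11c, a signal peptidase subunit, differed by -0.44 ± 0.17. The 8 germinal center genes had medians of 0.10 with and 0.15 without replicate 1, with the lowest p for Fas (0.78 ± 0.27), a death receptor of many other cells too. Of the 10 signals that attract B cells or keep them alive, Cxcl13, the chemokine of B cell follicles, measured 10.23, 6.39, 7.29, and 7.14 in DIO + HMB tumors, against 5.87, 6.72, and 4.94 in DIO tumors. It measured 6.56, 7.44, and 6.61 in control + HMB tumors and 5.41, 5.91, and 5.65 in control tumors. The difference between DIO + HMB and DIO tumors was 1.92 ± 0.71 (SE, limma adjusted p = 0.705), and 1.10 ± 0.40 (adjusted p = 0.79) without replicate 1. Cxcl12 differed by 1.08 ± 0.59 and, without that array, by 0.70 ± 0.57. With all arrays Tnfsf13b, which encodes BAFF, differed by 0.26 ± 0.15 and Il7 by 0.31 ± 0.19.

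Markers of other cells moved with replicate 1 as well, and their part in the B cell values was not tested. The sources used here do not describe which tissue around each tumor was kept or removed. All 12 T cell genes were highest on it, with a list score of 1.30 against -0.79 to 0.57 on the other 12 arrays. The list of lymph node vessel, sinus, and follicle genes scored 1.25 against -0.56 to 0.20, with 7 of 13 highest on it. The ductal epithelial list scored 1.29 against -0.36 to 0.47, with 6 of 9 highest on it. The macrophage list scored -0.11 against -0.38 to 0.23, and the plasmacytoid dendritic cell list -0.01 against -0.27 to 0.29. The skin list scored 0.51 against -0.24 to 0.34, with 1 of 9 genes highest on it. That gene was Krt14, which lay 3.88 above the next highest array. The adipocyte list scored 0.51 on replicate 1, and its highest score, 2.38, was on DIO + HMB replicate 2. All values of these lists were above 0 on the log2 scale. No detection call was used, and a value above 0 does not show that a gene was detected.

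Between DIO + HMB and DIO tumors, all 12 T cell genes had higher means, with a median of 0.80, and all 12 did without replicate 1, with a median of 0.44. The T cell genes with the lowest p were Cd8b1 (0.87 ± 0.30), Ubash3a (1.04 ± 0.39), Cd6 (1.08 ± 0.41), and Cd28 (0.78 ± 0.33). Without replicate 1 they differed by 0.54 ± 0.19 for Cd8b1, 0.76 ± 0.36 for Ubash3a, 0.75 ± 0.37 for Cd6, and 0.48 ± 0.26 for Cd28. Over the 12 other arrays the T cell score correlated with the score of the 9 genes at r = 0.65, that of the surface and homing genes at 0.56, and that of the macrophage genes at 0.10. In DIO + HMB against DIO the 11 macrophage genes (lowest p for Cd68, Itgam, Mrc1, and Cd14) had medians of 0.07 with and 0.14 without replicate 1. The 7 plasmacytoid dendritic cell genes (Klk1, Bst2, Tcf4, and Siglech) had medians of 0.05 with and -0.15 without it, and the 9 skin genes (Lor, Trp63, Krt10, and Flg) of -0.11 and -0.20. The 13 lymph node genes had medians of 0.36 with and 0.13 without it. Of these, after Cxcl13, the lowest p-values were those of Clec4g (-0.46 ± 0.18), Fut7 (0.36 ± 0.19), and Madcam1 (0.54 ± 0.31, and 0.23 ± 0.23 without replicate 1). The 9 ductal genes, among them Krt18, Krt8, Epcam, and Cldn4, had medians of 0.02 with and -0.29 without replicate 1. With all arrays 5 of the 9 had higher and 4 lower means in DIO + HMB tumors, and all 9 had lower means without replicate 1. The 9 adipocyte genes, led by Pparg (1.12 ± 0.40), Plin4 (1.00 ± 0.37), Lipe (0.76 ± 0.29), and Retn (1.55 ± 1.06), had medians of 1.11 with and 1.13 without it.

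**Figure D4:**
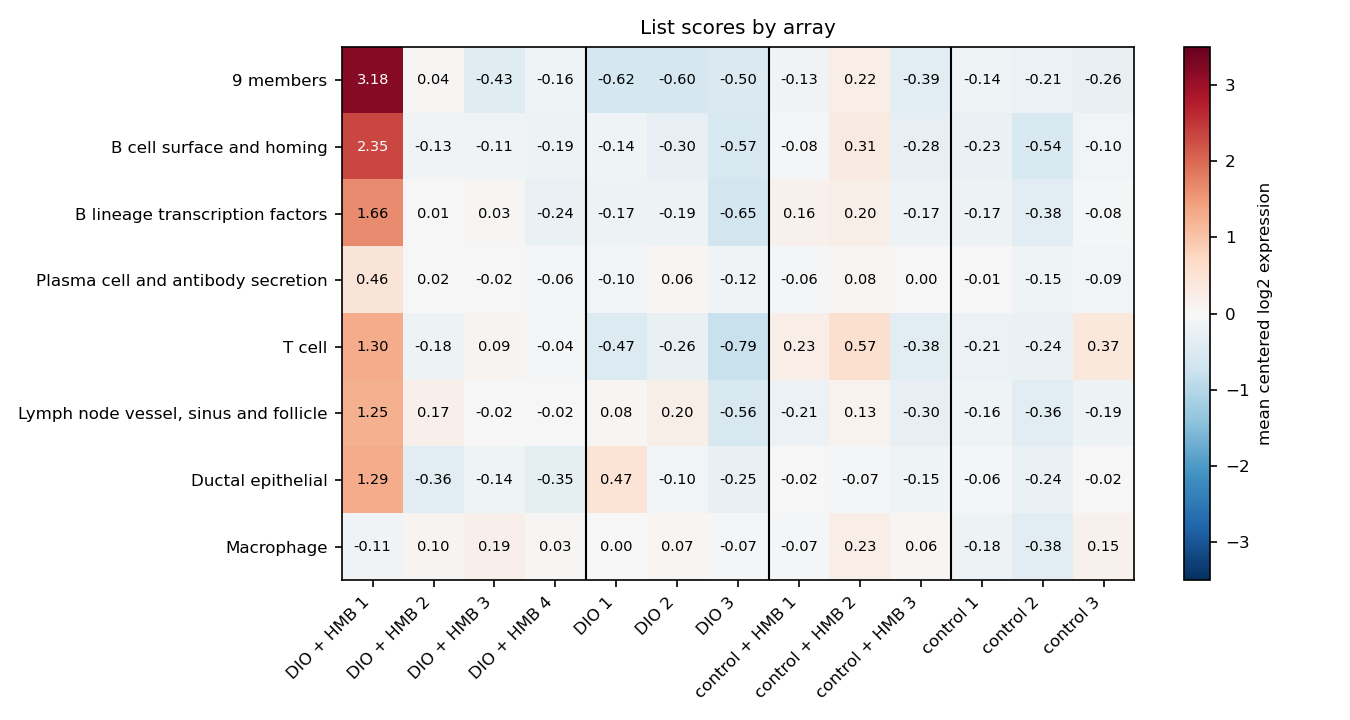
Mean centered log2 expression of the 9 genes and of 7 marker lists on each array, with groups parted by lines and DIO + HMB at the left. The column of DIO + HMB replicate 1 reaches 3.18 for the 9 genes, 1.30 for the T cell list, and 1.29 for the ductal list, and is -0.11 for the macrophage list.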

How the data were processed

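Gene expression was measured on Affymetrix Mouse Gene 2.1 ST arrays, with RNA of 1 tumor per array. The authors deposited log2 expression values, and affy, limma, and RMA are named in the submitters' processing notes without versions. RMA corrects background, makes the distributions of all arrays alike, and summarizes probes, which compresses low values. The table held 41345 probe sets, of which 23521 carried 1 gene symbol in the platform annotation. For each of 22180 genes the probe set with the highest mean was kept.

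Group means were fitted to all 13 arrays with limma 3.58.1 in R 4.3.3 (9 residual degrees of freedom), and p-values were adjusted by Benjamini-Hochberg over all genes at a threshold of 0.05. The fit was tested on simulated data. The number of arrays limits the precision. The score is the mean of the log2 values of the genes, each centered on its mean over 13 arrays.

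The 9 genes and the lists were chosen with earlier results of these data known. All 9 were named, together with up to 4 genes per list of lowest unadjusted p in DIO + HMB against DIO, and the 8 genes most correlated with the score, predicted symbols left out (2 over 12 arrays). Alternatives were leaving out each array, other sample sets, array weights, variance shrinkage, filtering, probe set averaging, centering, a covariate for array width, a replicate block, and the t-test of the study's methods.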

Additional observations from a re-analysis of the deposited data

Results flagged for a closer look

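DIO + HMB replicate 1 lay far above the other 3 arrays of its group for 5 of the 9 genes and for their score. The gap to the nearest of the others, as a share of the group's range, was 0.921 for Cd79b, 0.912 for Ms4a1, 0.863 for Blk, 0.837 for Pou2af1, and 0.836 for Ighm, and it was 0.869 for the score. Each exceeded Dixon's critical value for a group of 4, and chance marks about 5% of groups. That rate does not apply to an array named in advance and genes chosen with earlier results known. Of all 22180 genes, 1337 (6.03%) were marked in the DIO + HMB group, in either direction. For the other 4 genes the share was 0.815 for Cd22, 0.78 for Jchain, 0.737 for Cd79a, and 0.656 for Tnfrsf17. The groups of 3 arrays were not examined in this way.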

How the results depend on the processing

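None of the 9 genes passed the adjusted threshold in any of the 7 comparisons under any alternative in which it was tested. The filter for higher-expressed genes kept 3 of the 9 (Ighm, Cd79b, and Cd22), whose median in DIO + HMB against DIO was 1.31. The fit of only the groups compared and the t-test were run for the comparisons of 2 groups alone. The median difference of the 9 genes in DIO + HMB against DIO, 1.33, lay between 0.27 and 1.78 when arrays were left out 1 at a time. The value of 0.27 was that without DIO + HMB replicate 1, and over the other 21 settings the median stayed between 1.05 (array weights) and 1.78. In the other comparisons medians moved by less than the pooled spread of 0.99, which replicate 1 itself widens. Without that array the median was -0.07 in DIO + HMB against control + HMB, where the main value was 0.78. With array width as a covariate the median was -0.10 in DIO against control, 0.81 in control + HMB against control, and 1.73 in DIO + HMB against control, where the main values were -0.38, 0.24, and 0.96. With array weights the median interaction was 0.65, where the main value was 1.13. Tnfrsf17 in DIO + HMB against DIO, 0.08 with all arrays, lay between -0.005 without DIO + HMB replicate 1 and 0.215 when arrays were left out, was -0.004 without DIO replicate 1, and was -0.035 with arrays centered on their medians. Pou2af1 lay between -0.15, without DIO + HMB replicate 1, and 1.36 when arrays were left out, and was 1.65 with array width as a covariate. The cause was not tested. With replicate number as a block, the median in DIO + HMB against DIO was 1.68 and no call changed. Arrays of the same number correlated between -0.185 and 0.297 (18 pairs, deviations from group means). Those of different number correlated between -0.344 and 0.314 (45 pairs). The labels do not say what the numbers stand for, and such correlations cannot show that they carry no meaning. In the main fit the numbers only name the samples. By the methods' t-test, 0 of the 9 genes had an unadjusted p under 0.05 in DIO + HMB against DIO, where limma gave 3, and 1356 of all genes did (0 after Benjamini-Hochberg). The score on replicate 1 lay between 2.96 and 3.56 with each gene left out in turn. Over all settings the lowest adjusted p of a member in that comparison was 0.335, for Ighm.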
